A study of Mus musculus with 3 samples.

Results

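The genes described here encode the lysosomal proton pump, its accessory proteins, the cathepsins and the lysosome-associated membrane proteins. They were chosen by a rule on gene symbols, set with earlier results of these data known. It takes genes whose annotated symbol starts with Atp6v, pseudogenes left out, plus Atp6ap1, Atp6ap2, Lamp1, Lamp2 and 11 named cathepsins. This rule gave 36 of the 25206 genes in the table. Of these, 12 encode V1 subunits of the pump, 8 encode V0 subunits, 2 encode accessory proteins, 2 encode LAMP proteins and 11 encode cathepsins. The remaining 1, Atp6v1fnb, shares the prefix as a neighbour of Atp6v1f and is not a pump subunit. The platform annotation used here lists no row as Atp6v1f or Atp6v0c, and these subunits were not analysed here.

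Lysosomes degrade proteins, lipids and whole organelles delivered by endocytosis and autophagy, and together with the proteasome they carry out the protein breakdown of wasting muscle. Their lumen is kept acid by the vacuolar H+-ATPase, in which the cytosolic V1 sector hydrolyses ATP and thereby turns a ring in the membrane-embedded V0 sector that carries protons across. Cathepsins are proteases mostly found in lysosomes, and most of them work best in this acid interior. Several of the genes are known targets of TFEB and its relatives TFE3 and MITF, which bind E-box sequences around the letters CACGTG, and Ctsl is a known FoxO-dependent gene of atrophying muscle.

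The tibialis anterior was profiled on 3 Mouse Gene 2.0 ST arrays, 1 for each group, and each array held the pooled RNA of 3 mice. C26 FoxP1-shRNA mice carried colon 26 (C26) adenocarcinoma, which causes cachexia, and an AAV9 vector that encodes an shRNA against FoxP1 and mCherry. C26 scrambled-shRNA mice carried the same tumour and an AAV9 vector that encodes a scrambled shRNA and GFP. Sham mice received PBS in place of tumour cells, together with the scrambled-shRNA vector. All were male CD2F1 mice (strain CD2 in the labels), 10 weeks old when 1e+11 vector genomes were injected into each muscle, and 500000 C26 cells were placed in each flank 2 weeks later. Muscles were taken 26 days after inoculation. The vector was delivered to the muscle alone, the tumour being untreated, and the 2 shRNA vectors differ in their fluorescent protein as well as in the shRNA. No group has a replicate array, so that no test, p-value or spread between mice can be given, and every value below describes these 3 pools. The values are log2 expression values on the scale set by Robust Multiarray Average (RMA), on which a difference of 1 is 2-fold, and they serve to compare 1 gene between arrays, not 1 gene with another.

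Foxp1, the target of the shRNA, had a log2 value of 6.52 in C26 FoxP1-shRNA, 7.31 in C26 scrambled-shRNA and 6.41 in Sham. The array labelled FoxP1-shRNA was thus 1.73-fold below C26 scrambled-shRNA. The 12 skeletal muscle markers had log2 values between 9.40 and 12.39, against medians of all genes of 3.99 in C26 FoxP1-shRNA, 4.05 in C26 scrambled-shRNA and 4.06 in Sham. In whole muscle, fewer cells of a type and less RNA per cell cannot be told apart.

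Stretches of DNA before the transcription start were examined for the E-box, because several pump and cathepsin genes are known TFEB targets. RefSeq windows of GRCm38.p6, from 250 bases before to 50 after an annotated start, were matched to 28 of the 36 genes, and 8 (Atp6v0a2, Atp6v0d2, Atp6v1b2, Atp6v1c1, Atp6v1g1, Atp6v1h, Ctsb and Ctsh) had none in the table. The letters CACGTG, which read the same on both strands, lay in a window of 9 of the 28 genes (32.1%), against 7.15% of all 32851 windows and 8.09% of the 27025 genes with a window. These were Atp6v0b, Atp6v0d1, Atp6v0e, Atp6v1a, Ctsa, Ctsd, Ctsf, Ctsl and Lamp1. The longer letters TCACGTGA, which contain CACGTG, lay in windows of 5 genes (17.9%), namely Atp6v0d1, Atp6v0e, Atp6v1a, Ctsa and Ctsd, against 0.974% of all windows. The FoxO and Fox family letters GTAAACA, searched on both strands, lay in the window of 1 gene, Atp6v1b1 (3.57%, against 3.65% of all windows). Of the 9 genes with CACGTG, 5 hold it in a window at the outermost annotated start. The E-box letters were searched because several of these genes are known targets. A share above that of all genes could thus be foreseen and is no independent result. A match is a run of letters and not a shown binding site.

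Of the 30 windows of these 28 genes, 20 begin at the outermost annotated start of the gene and 10 at a start inside it. The window of Ctsl starts 252 bases inside the gene, and those of Atp6v1a and Ctsa that hold the letters start 443 and 901 bases inside, so that these are not shown. The 250 bases before the outermost start are given for 3 genes that hold the letters, Ctsd and Ctsf, which stood above Sham in C26 scrambled-shRNA, and Lamp1, which differed little, and for Ctss, which was lower and holds none. Capitals mark CACGTG, and each run reads 5′ to 3′ on the strand of the gene. Ctsd lies on the minus strand (chr7:142387828-142388077), Ctsf on the plus strand (chr19:4854915-4855164), Lamp1 on the plus strand (chr8:13158911-13159160) and Ctss on the plus strand (chr3:95526536-95526785).
Ctsd: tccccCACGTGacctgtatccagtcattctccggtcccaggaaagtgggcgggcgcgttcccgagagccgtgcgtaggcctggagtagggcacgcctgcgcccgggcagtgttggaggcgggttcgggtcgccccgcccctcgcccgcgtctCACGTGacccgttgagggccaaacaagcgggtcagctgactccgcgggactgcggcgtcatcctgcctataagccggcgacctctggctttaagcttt
Ctsf: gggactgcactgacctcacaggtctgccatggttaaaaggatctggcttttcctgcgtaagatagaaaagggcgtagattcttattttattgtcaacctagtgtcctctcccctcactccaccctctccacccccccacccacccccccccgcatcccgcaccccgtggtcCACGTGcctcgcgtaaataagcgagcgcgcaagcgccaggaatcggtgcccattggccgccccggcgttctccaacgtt
Lamp1: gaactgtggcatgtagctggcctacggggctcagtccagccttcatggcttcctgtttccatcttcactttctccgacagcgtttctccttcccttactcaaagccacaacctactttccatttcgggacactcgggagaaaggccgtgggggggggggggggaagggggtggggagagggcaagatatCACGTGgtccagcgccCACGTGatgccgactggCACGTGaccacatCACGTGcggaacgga
Ctss: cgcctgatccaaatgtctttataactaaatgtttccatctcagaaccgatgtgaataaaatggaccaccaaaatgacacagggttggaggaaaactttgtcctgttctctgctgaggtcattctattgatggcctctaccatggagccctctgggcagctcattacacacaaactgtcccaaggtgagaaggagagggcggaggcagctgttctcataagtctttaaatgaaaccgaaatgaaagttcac

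Ctsd holds 2 matches, of which the one nearer the start is the longer TCACGTGA, Ctsf holds 1, and Lamp1 holds 4 in the last 61 bases before the start. In Atp6v0d1 and Atp6v0e the match lies across or just after the start, outside the stretch shown for the other genes.

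**Figure D1:**
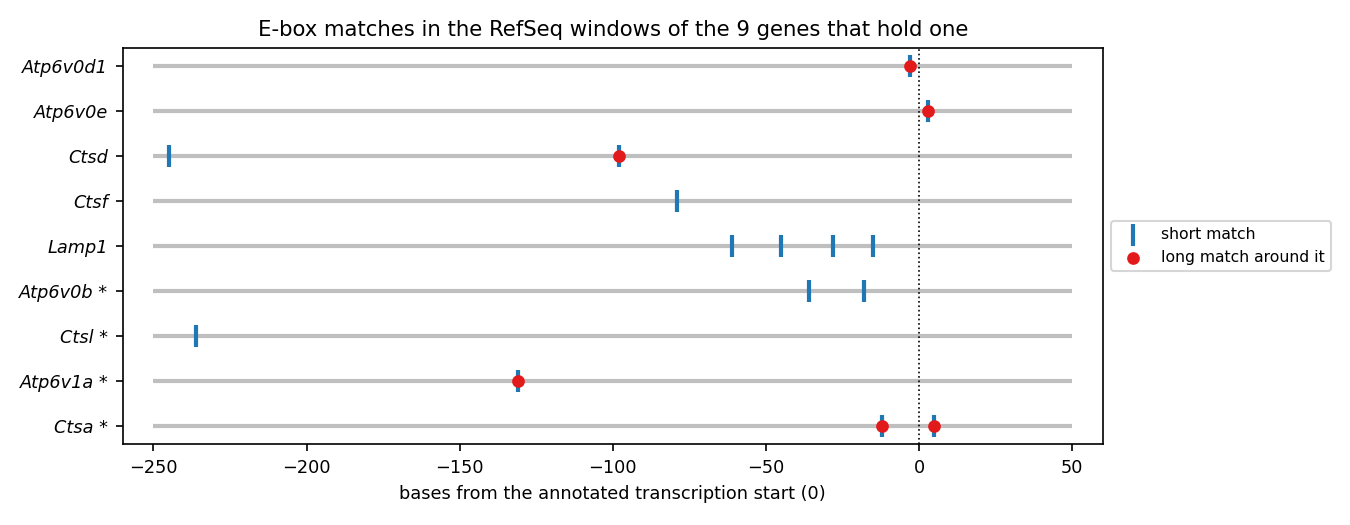
Positions of CACGTG (bars, short match) and TCACGTGA (dots, long match) in the RefSeq windows of the 9 genes that hold one, in bases from the annotated start at 0; an asterisk marks a window whose start lies inside the gene. Lamp1 holds 4 matches within 61 bases before its start, and Ctsd holds 2, at 245 and 98 bases before it.

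In C26 scrambled-shRNA over Sham, the median log2 difference of the 9 genes with CACGTG in a window was 0.62, ranging from -0.14 to 2.39, and 5 were higher by 1.5-fold and 0 lower. The 19 genes with a window and no such letters had a median of 0.02, with 1 higher by 1.5-fold and 3 lower. Of all 25206 genes, 10.1% were higher and 10.5% lower by this size. Of genes at or above the median on at least 1 of these 2 arrays, 15.0% were higher and 17.0% lower. All 9 genes with the letters lay at or above the median on all 3 arrays. Of the 19, Atp6v0a4, Atp6v1b1, Atp6v1c2, Atp6v1fnb and Atp6v1g3 lay below it on all 3, so that the sets differ in brightness. Atp6v1e2 lay below it in C26 scrambled-shRNA and Sham. Atp6v0a1, Atp6v1c2, Atp6v1d, Atp6v1g2 and Ctsc, also of the 19, had windows only at starts inside the gene. The bases before their outermost start were searched in part or not at all. Atp6v1h and Ctsb, both higher by 1.5-fold, had no window and are in neither set. In C26 FoxP1-shRNA over C26 scrambled-shRNA the medians were -0.14 with the letters and 0.09 without. Ctsl, the highest of the 9, holds them in a window inside the gene, and the bases before its outermost start were not searched. These medians are descriptions of small sets with no test.

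The tumour comparison, C26 scrambled-shRNA over Sham, asks which of these genes differ in cachectic muscle. Ctsl and the pump subunit Atp6v1h were higher by at least 2-fold, and the cathepsins Ctss and Ctsc were lower by at least 2-fold. At 1.5-fold, 8 of the 36 genes were higher (Atp6v0d1, Atp6v0e, Atp6v1h, Ctsb, Ctsd, Ctsf, Ctsl and Lamp2) and 4 were lower (Ctsc, Ctsh, Ctso and Ctss). The 4 lower genes were all cathepsins, and 0 of the 20 pump subunits were lower by 1.5-fold. Read against all 25206 genes, the 2 members higher by 2-fold (5.56%) stand beside 3.34%, and the 2 lower (5.56%) beside 4.33%. At 1.5-fold, the 8 higher (22.2%) stand beside 10.1% and the 4 lower (11.1%) beside 10.5%. The members are mostly bright genes, 29 of the 36 being at or above the array median on all 3 arrays. Among bright genes, here those at or above the median on at least 1 of the 2 arrays compared, 15.0% were higher and 17.0% lower by 1.5-fold. At 2-fold, 5.77% of bright genes were higher and 7.5% lower, so that the members lay near the former share and below the latter. The share of members higher by 1.5-fold was thus above the share in all genes, while that of members lower was near or below it.

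**Figure D2:**
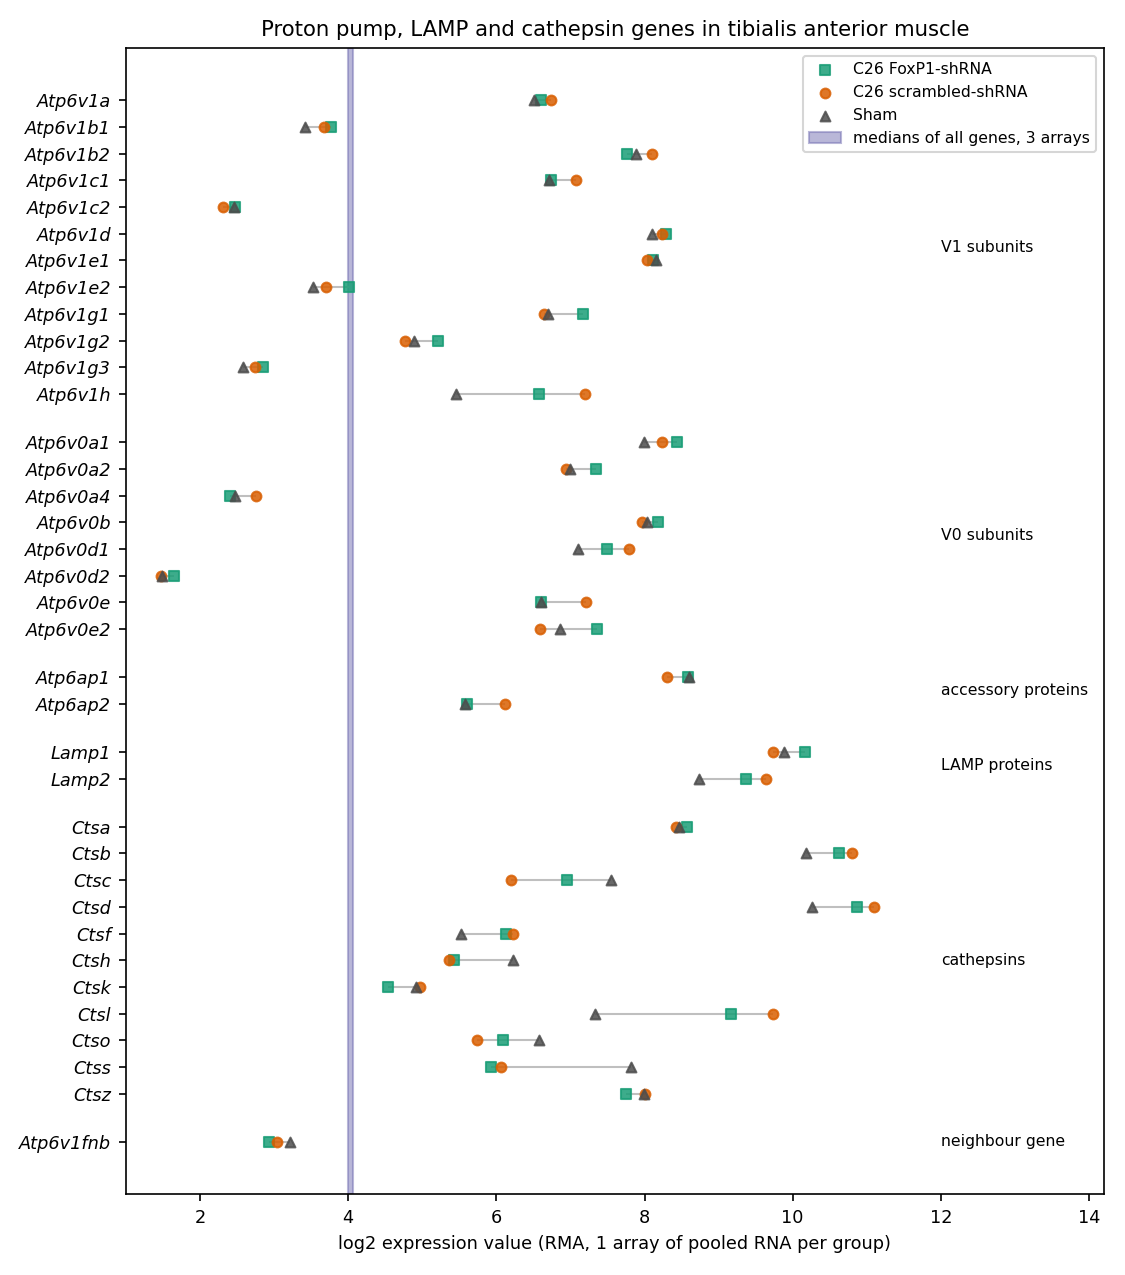
RMA log2 value of each of the 36 genes (rows, by role) in C26 FoxP1-shRNA (squares), C26 scrambled-shRNA (circles) and Sham (triangles), 1 array of pooled RNA per group; grey lines join the lowest and highest array and the purple band spans the array medians. Ctsl, Atp6v1h and Ctss have the widest spread between arrays, and most pump subunits lie within a fraction of a log2 unit.

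Most subunits of the V1 sector, which hydrolyses ATP, differed little between the arrays. The median log2 difference of the 12 was 0.16 in C26 scrambled-shRNA over Sham, against 0.03 over all genes. The exception was Atp6v1h, the regulatory subunit that in yeast is needed for ATP hydrolysis by the assembled pump. Atp6v1h had a log2 value of 6.58 in C26 FoxP1-shRNA, 7.20 in C26 scrambled-shRNA and 5.46 in Sham. C26 scrambled-shRNA was the highest array and Sham the lowest. The gene was 2.18-fold above Sham in C26 FoxP1-shRNA and 3.35-fold above it in C26 scrambled-shRNA, and C26 FoxP1-shRNA lay 1.54-fold below C26 scrambled-shRNA. The last of these differences fell below 1.5-fold when arrays were centred on their median or on reference genes.

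The other 11 V1 genes ranged from -0.15 to 0.37 in C26 scrambled-shRNA over Sham. Atp6v1a, the catalytic subunit, had log2 values of 6.60 in C26 FoxP1-shRNA, 6.74 in C26 scrambled-shRNA and 6.51 in Sham. Atp6v1b2, the nucleotide-binding B subunit found in most tissues, had 7.76, 8.11 and 7.88 on the same arrays. These 2 genes of the catalytic head therefore differed by at most 1.27-fold between any 2 arrays. Atp6v1c1, a stalk subunit, had 6.73 in C26 FoxP1-shRNA, 7.08 in C26 scrambled-shRNA and 6.71 in Sham. It was 1.29-fold above Sham in C26 scrambled-shRNA. Atp6v1d of the central shaft and Atp6v1e1 of the peripheral stalks differed by at most 1.14-fold between any 2 arrays. The stalk subunit Atp6v1g1 was highest in C26 FoxP1-shRNA, at 7.16, against 6.65 in C26 scrambled-shRNA and 6.69 in Sham. It was 1.43-fold above C26 scrambled-shRNA there, short of the 1.5-fold size, which it passed with arrays centred on reference genes.

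Some subunit forms known from other tissues were dim in this muscle. Atp6v1b1, Atp6v1c2 and Atp6v1g3, found mainly in kidney and other acid-secreting epithelia, lay below the array median on all 3 arrays, between 2.31 and 3.77. Atp6v1e2, known from testis, had 4.01 in C26 FoxP1-shRNA, 3.70 in C26 scrambled-shRNA and 3.53 in Sham, so that it was at or above the array median in C26 FoxP1-shRNA and below it on the other 2 arrays. Atp6v1g2, known from brain, was above the array median on all 3 arrays, with 5.22, 4.77 and 4.89. Atp6v1fnb was dim, with 2.93, 3.04 and 3.22.

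In the V0 sector, which carries protons through the membrane, 2 of 8 genes exceeded Sham by 1.5-fold in C26 scrambled-shRNA and 0 were lower, against 10.1% and 10.5% of all genes and 15.0% and 17.0% of bright genes. The median difference was 0.12. Atp6v0d1, the subunit that couples the central shaft to the ring, had a log2 value of 7.49 in C26 FoxP1-shRNA, 7.79 in C26 scrambled-shRNA and 7.10 in Sham. It was highest in C26 scrambled-shRNA, 1.61-fold above Sham. Atp6v0e, the small membrane subunit found in most tissues, had 6.60 in C26 FoxP1-shRNA, 7.22 in C26 scrambled-shRNA and 6.60 in Sham. It stood high in C26 scrambled-shRNA alone, 1.53-fold above Sham, and C26 FoxP1-shRNA was 1.54-fold below C26 scrambled-shRNA. That second difference fell below 1.5-fold when arrays were centred on their median or on reference genes.

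The paralogue Atp6v0e2, known mainly from brain, showed another order of the arrays. It had 7.36 in C26 FoxP1-shRNA, 6.59 in C26 scrambled-shRNA and 6.86 in Sham. It was highest in C26 FoxP1-shRNA, 1.71-fold above C26 scrambled-shRNA and 1.41-fold above Sham. The a subunits, which form the proton path and set where the pump resides, differed less. Atp6v0a1 had 8.43 in C26 FoxP1-shRNA, 8.23 in C26 scrambled-shRNA and 7.99 in Sham, and Atp6v0a2 had 7.35, 6.94 and 7.00. Atp6v0b, a subunit of the rotating ring, differed by at most 1.16-fold between any 2 arrays. Atp6v0a4, the kidney form of the a subunit, and Atp6v0d2, known from osteoclasts and kidney, were below the array median on all 3 arrays, between 1.48 and 2.76.

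The accessory proteins, which assist assembly of the pump, stayed within 1.5-fold. Atp6ap1 had 8.59 in C26 FoxP1-shRNA, 8.31 in C26 scrambled-shRNA and 8.60 in Sham. Atp6ap2, the prorenin receptor, had 5.60 in C26 FoxP1-shRNA, 6.12 in C26 scrambled-shRNA and 5.58 in Sham. The C26 scrambled-shRNA array was thus the lowest for Atp6ap1, 1.22-fold below Sham, and the highest for Atp6ap2, 1.45-fold above Sham.

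Of the 2 LAMP proteins, which line the inner face of the lysosomal membrane, Lamp2 differed from Sham and Lamp1 did not reach 1.5-fold. Lamp2, which is needed for fusion of autophagosomes and for chaperone-mediated autophagy, had 9.37 in C26 FoxP1-shRNA, 9.63 in C26 scrambled-shRNA and 8.74 in Sham. Both C26 arrays lay above Sham, by 1.55-fold in C26 FoxP1-shRNA (below 1.5-fold under cyclic loess normalization) and by 1.86-fold in C26 scrambled-shRNA. Lamp1 had 10.17 in C26 FoxP1-shRNA, 9.74 in C26 scrambled-shRNA and 9.88 in Sham.

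**Figure D3:**
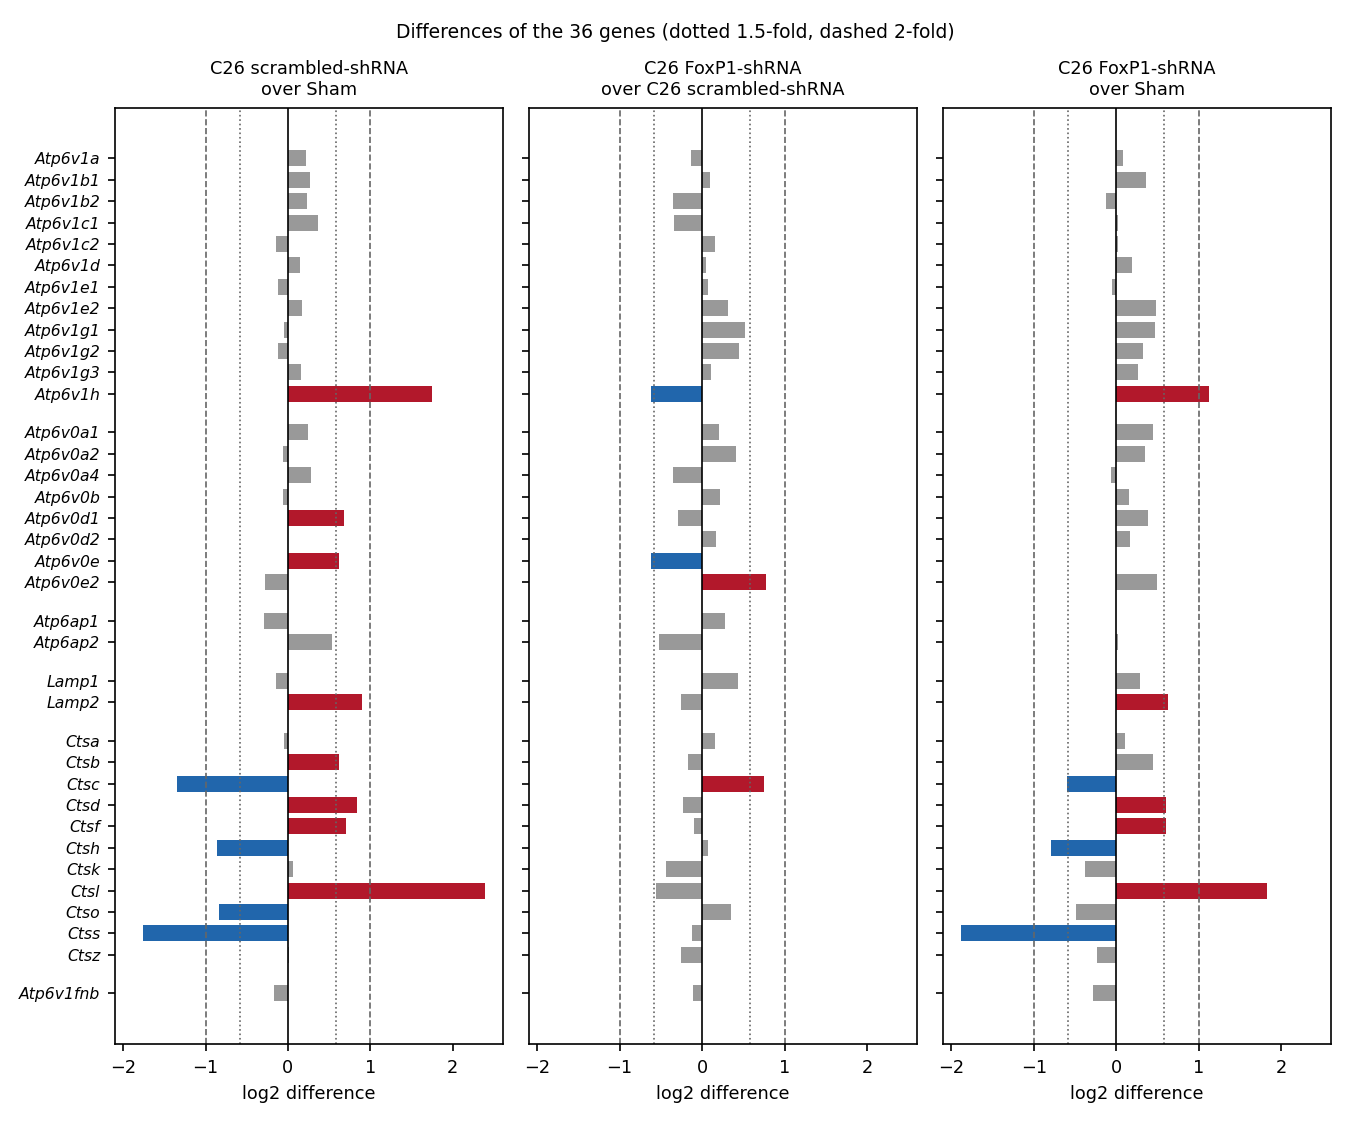
Log2 difference of each of the 36 genes in the 3 comparisons (panels), with red bars for genes higher and blue bars for genes lower by at least 1.5-fold (dotted lines; dashed lines mark 2-fold). The pump subunits past 1.5-fold in C26 scrambled-shRNA over Sham are all higher, whereas the cathepsins run from -1.76 (Ctss) to 2.39 (Ctsl).

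The cathepsins split in the tumour comparison. Of the 11, C26 scrambled-shRNA had 4 above Sham by 1.5-fold, 4 below it and 3 within that size, against 10.1% of all genes above and 10.5% below (15.0% and 17.0% of bright genes). Their median difference of 0.02 lay close to that of all genes. Their SD over genes was 1.17, against 0.50 for the V1 subunits, 0.34 for the V0 subunits and 0.61 for all genes.

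Ctsl, a cysteine endopeptidase that is a known marker gene of muscle atrophy, had 9.17 in C26 FoxP1-shRNA, 9.73 in C26 scrambled-shRNA and 7.34 in Sham. Against Sham, it was 3.56-fold higher in C26 FoxP1-shRNA and 5.24-fold higher in C26 scrambled-shRNA. Ctsd, the main aspartic protease of lysosomes, had 10.87 in C26 FoxP1-shRNA, 11.10 in C26 scrambled-shRNA and 10.26 in Sham. It was higher in both C26 arrays, by 1.52-fold in C26 FoxP1-shRNA (below 1.5-fold under cyclic loess normalization) and 1.78-fold in C26 scrambled-shRNA. Ctsb, a cysteine protease that also acts as a dipeptidyl carboxypeptidase, had 10.63 in C26 FoxP1-shRNA, 10.80 in C26 scrambled-shRNA and 10.18 in Sham. Against Sham, it was 1.37-fold higher in C26 FoxP1-shRNA and 1.54-fold higher in C26 scrambled-shRNA. Ctsf, a cysteine protease, had 6.13 in C26 FoxP1-shRNA, 6.23 in C26 scrambled-shRNA and 5.53 in Sham. It was higher by 1.52-fold in C26 FoxP1-shRNA and by 1.63-fold in C26 scrambled-shRNA, each against Sham.

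The lower cathepsins include proteases known best from immune cells. Ctss, which trims the invariant chain of MHC class II in antigen-presenting cells, had 5.93 in C26 FoxP1-shRNA, 6.06 in C26 scrambled-shRNA and 7.82 in Sham. Both C26 arrays lay well below Sham, by 3.69-fold in C26 FoxP1-shRNA and 3.38-fold in C26 scrambled-shRNA. Ctsc, the dipeptidyl peptidase that activates granule serine proteases of immune cells, had 6.95 in C26 FoxP1-shRNA, 6.20 in C26 scrambled-shRNA and 7.55 in Sham. C26 scrambled-shRNA was 2.54-fold below Sham, and C26 FoxP1-shRNA was 1.68-fold above C26 scrambled-shRNA and 1.51-fold below Sham, the last falling short of 1.5-fold when arrays were centred on their median or on reference genes. Ctsh, an aminopeptidase, had 5.42 in C26 FoxP1-shRNA, 5.36 in C26 scrambled-shRNA and 6.22 in Sham. It was lower than Sham by 1.74-fold in C26 FoxP1-shRNA (below 1.5-fold when arrays were centred on reference genes) and by 1.82-fold in C26 scrambled-shRNA. Ctso, a cysteine protease, had 6.09 in C26 FoxP1-shRNA, 5.74 in C26 scrambled-shRNA and 6.58 in Sham. It was lowest in C26 scrambled-shRNA, 1.79-fold below Sham, and 1.40-fold below Sham in C26 FoxP1-shRNA.

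The remaining 3 cathepsins stayed within 1.5-fold between any 2 arrays. Ctsa, the carboxypeptidase that protects β-galactosidase and neuraminidase in lysosomes, had 8.58 in C26 FoxP1-shRNA, 8.42 in C26 scrambled-shRNA and 8.47 in Sham. Ctsz, a carboxypeptidase, differed by at most 1.19-fold between any 2 arrays. Ctsk, the collagen-degrading protease of osteoclasts, had 4.54 in C26 FoxP1-shRNA, 4.97 in C26 scrambled-shRNA and 4.91 in Sham.

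Markers of other cell types also differed in the tumour comparison, in both directions. Their counts at 1.5-fold stand beside 10.1% of all genes higher and 10.5% lower (15.0% and 17.0% of bright genes). Of 9 antigen-presenting cell markers, C26 scrambled-shRNA had 7 below Sham by 1.5-fold and 0 above, with a median difference of -1.18. Their summed linear value was 251 in C26 FoxP1-shRNA, 286 in C26 scrambled-shRNA and 2393 in Sham. Such sums are weighted to the brightest genes, here Cd74, H2-Ab1 and H2-Aa, with log2 values of 10.34, 9.30 and 8.08 in Sham. Flt3, Itgax, Cd79a and Ms4a1 were below the array median on all 3 arrays, and Itgax and Ms4a1 are among the 7 lower. The other lower markers were Cd74, the MHC class II genes H2-Aa, H2-Ab1 and H2-Eb1, and Ciita. Cd74, the invariant chain that Ctss processes, had a log2 value of 6.64 in C26 FoxP1-shRNA, 6.82 in C26 scrambled-shRNA and 10.34 in Sham. It was 13.0-fold lower than Sham in C26 FoxP1-shRNA and 11.5-fold lower in C26 scrambled-shRNA. Ctss was also lower than Sham on both. The 2 C26 arrays differed by only 1.13-fold for Cd74 and 1.09-fold for Ctss, and a link between the genes was not tested. H2-Aa, an MHC class II chain, had 4.39 in C26 FoxP1-shRNA, 4.44 in C26 scrambled-shRNA and 8.08 in Sham.

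Of 20 macrophage markers, C26 scrambled-shRNA had 12 below Sham by 1.5-fold and 4 above, with a median of -0.81. Their summed linear value was 877 in C26 FoxP1-shRNA, 1349 in C26 scrambled-shRNA and 1607 in Sham. Mpeg1, which encodes a pore-forming protein of phagosomes, had 4.41 in C26 FoxP1-shRNA, 5.07 in C26 scrambled-shRNA and 7.07 in Sham. Cd68, a macrophage relative of the LAMP proteins, went the other way in C26 scrambled-shRNA, with 6.45 in C26 FoxP1-shRNA, 8.60 in C26 scrambled-shRNA and 6.83 in Sham. The macrophage list was thus mixed, with Cd68 3.40-fold above and Mpeg1 3.98-fold below Sham in C26 scrambled-shRNA.

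Neutrophil markers were higher in C26 scrambled-shRNA, 9 of 13 by 1.5-fold and 0 lower, with a summed linear value of 340 in C26 FoxP1-shRNA, 493 in C26 scrambled-shRNA and 128 in Sham. S100a8, an abundant calcium-binding protein of neutrophils, had 6.14 in C26 FoxP1-shRNA, 6.55 in C26 scrambled-shRNA and 3.01 in Sham. The granulocyte markers Ly6g, Camp and Mpo stayed dim, between 2.16 and 3.81 on the 3 arrays. Fibroblast markers were lower in C26 scrambled-shRNA, 7 of 10 by 1.5-fold and 0 higher, with a median of -1.16 and summed linear values of 2266 in C26 FoxP1-shRNA, 1945 in C26 scrambled-shRNA and 3889 in Sham. Skeletal muscle markers, 12 genes, had a median of -0.35 in the tumour comparison, 3 being lower by 1.5-fold and 0 higher, and summed linear values of 35705 in C26 FoxP1-shRNA, 31530 in C26 scrambled-shRNA and 41994 in Sham. The 6 osteoclast markers were within 1.5-fold on all 3 arrays. The part of these cell types in the differences of pump and cathepsin genes was not tested.

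The knockdown comparison, C26 FoxP1-shRNA over C26 scrambled-shRNA, asks whether these genes differ in tumour-bearing muscle with less FoxP1. Of the 36 genes, 0 were higher and 0 lower by 2-fold, where 1.44% and 1.06% of all genes were. At 1.5-fold, Atp6v0e2 and Ctsc were higher and Atp6v0e and Atp6v1h lower. These 2 genes in each direction (5.56%) stand beside 5.43% of all genes higher and 4.96% lower, so that the share of members past 1.5-fold was near that of the table. Among bright genes, 8.77% were higher and 6.63% lower by this size. The count of 2 lower became 0 with arrays centred on their median or on reference genes, and 3 with cyclic loess normalization. The count of 2 higher became 3 with arrays centred on reference genes. The median over the 36 was 0.06, or -0.023 without dim members, against -0.03 over all genes, with 0.08 for V1 subunits, 0.19 for V0 subunits and -0.13 for cathepsins. Ctsl, at -0.56, was 1.47-fold below C26 scrambled-shRNA and thus just short of 1.5-fold.

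This comparison shares the C26 scrambled-shRNA array with the tumour comparison, so that a deviation of that array enters both, with opposite sign. The third comparison, C26 FoxP1-shRNA over Sham, does not use that array. It shares the Sham array with the tumour comparison, so that a deviation of Sham enters both with the same sign. Its 2 arrays differ in tumour, shRNA and fluorescent protein at once. In it, Atp6v1h and Ctsl were higher by 2-fold (5.56%, against 1.61% of all genes) and Ctss was lower (2.78%, against 2.17%). At 1.5-fold, 5 genes were higher, namely Atp6v1h, Ctsd, Ctsf, Ctsl and Lamp2 (13.9%, against 5.76% of all genes and 8.53% of bright genes). Ctsc, Ctsh and Ctss were lower (8.33%, against 6.4% of all genes and 9.16% of bright genes). With arrays centred on reference genes, these counts became 13 higher and 1 lower, and with cyclic loess normalization 3 were higher. The median over the 36 genes was 0.16, against -0.0041 over all genes. That of the cathepsins was -0.23, and 0.0087 when arrays were centred on reference genes.

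Over the 3 comparisons, 13 of the 36 genes passed 1.5-fold at least once (36.1%) and 23 did not, against 26.4% of all genes and 37.8% of genes at or above the median of at least 1 array. Those 13 comprise 4 pump subunits, namely Atp6v0d1, Atp6v0e, Atp6v0e2 and Atp6v1h, together with Lamp2 and 8 cathepsins. With 1 array per group, how often pools of untreated mice would differ by as much is not known.

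Other lysosomal genes also went in both directions. Of 33 hydrolases other than cathepsins, C26 scrambled-shRNA had 6 above and 8 below Sham by 1.5-fold, with a median of -0.18. This count and those of the lists below stand beside 10.1% of all genes higher and 10.5% lower by 1.5-fold. Among bright genes the shares were 15.0% and 17.0%. Gaa, the acid α-glucosidase that degrades lysosomal glycogen, had 9.35 in C26 FoxP1-shRNA, 9.80 in C26 scrambled-shRNA and 7.73 in Sham. It was 3.06-fold above Sham in C26 FoxP1-shRNA and 4.18-fold above Sham in C26 scrambled-shRNA. Ctsl had the same order of arrays, as had other members such as Ctsb, Ctsd, Ctsf and Lamp2, and a link was not tested. Lower hydrolases included Ppt1, a thioesterase that removes palmitate from proteins, with 6.55, 5.94 and 7.41, and Arsb, a sulfatase, with 5.47, 5.00 and 6.48 on these arrays. Smpd1, the acid sphingomyelinase, had 7.17 in C26 FoxP1-shRNA, 6.11 in C26 scrambled-shRNA and 7.25 in Sham, so that C26 scrambled-shRNA alone was low. In the knockdown comparison 5 of the 33 were higher by 1.5-fold, Smpd1 among them at 2.08-fold, and 2 were lower. Of all genes, 5.43% were higher and 4.96% lower by 1.5-fold there (8.77% and 6.63% of bright genes).

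Of 22 further membrane proteins and transporters, 3 were higher and 2 lower by 1.5-fold in the tumour comparison. Npc1, which exports cholesterol from lysosomes, had 8.54 in C26 FoxP1-shRNA, 9.71 in C26 scrambled-shRNA and 7.24 in Sham. C26 FoxP1-shRNA lay 2.24-fold below C26 scrambled-shRNA, which lay 5.52-fold above Sham. Sidt2, a lysosomal membrane protein that binds nucleic acids, had 8.63, 9.16 and 7.82 on these arrays. Both were highest in C26 scrambled-shRNA and lowest in Sham. Atp6v1h had the same order of arrays, as had Atp6v0d1, Lamp2, Ctsb, Ctsd, Ctsf and Ctsl, and a link was not tested.

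Partners of the pump without an Atp6v symbol (13 genes) had a median of -0.06 in the tumour comparison (0.06 with arrays centred on reference genes), with 1 higher and 1 lower by 1.5-fold. The higher one was Dmxl2, a subunit of the rabconnectin complex that promotes assembly of V1 with V0, with 5.34 in C26 FoxP1-shRNA, 6.34 in C26 scrambled-shRNA and 4.68 in Sham. C26 FoxP1-shRNA lay 2.01-fold below C26 scrambled-shRNA, which lay 3.17-fold above Sham. The lower one was Oxr1, a TLDc-domain protein of a family that binds the pump, with 6.77, 6.22 and 7.01. Tcirg1, the a3 subunit known from osteoclasts and immune cells, had 4.88 in C26 FoxP1-shRNA, 5.01 in C26 scrambled-shRNA and 5.31 in Sham.

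Genes that sort hydrolases to lysosomes (15 genes) were 3 higher and 3 lower by 1.5-fold in the tumour comparison. Sort1, a sorting receptor, had 8.03 in C26 FoxP1-shRNA, 6.81 in C26 scrambled-shRNA and 7.71 in Sham. Gnptab, the enzyme that starts the mannose 6-phosphate tag, had 6.51, 5.34 and 5.98 on these arrays. Both were lowest in C26 scrambled-shRNA, with C26 FoxP1-shRNA 2.32-fold above it for Sort1 and 2.26-fold for Gnptab.

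Among 20 regulators of lysosome genes, 3 were higher and 3 lower by 1.5-fold in the tumour comparison. Foxo1, a FoxO factor that drives atrophy genes, had 8.12 in C26 FoxP1-shRNA, 8.84 in C26 scrambled-shRNA and 6.46 in Sham, and Foxo3 had 6.90, 7.12 and 5.54. These 2 FoxO genes were higher than Sham in both C26 arrays, whereas Rragd, a Rag GTPase that recruits mTORC1 to lysosomes, was lower, with 9.08, 8.49 and 9.52. The E-box-binding factors, given for that role and not for their size, were within 1.5-fold on all arrays. Tfeb had 5.42 in C26 FoxP1-shRNA, 5.15 in C26 scrambled-shRNA and 5.63 in Sham, Tfe3 had 6.01, 5.96 and 6.09, and Mitf had 6.23, 6.69 and 6.26. Activity of these factors depends on their place in the cell, which the arrays do not measure.

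Inhibitors of cysteine cathepsins, the cystatins and stefins, were measured for 10 genes, of which 3 were higher and 1 lower by 1.5-fold in the tumour comparison. The higher ones were Csta2, Stfa1 and Stfa2l1, and Csta2 and Stfa1 lay below the array median on all 3 arrays. Cst3 (cystatin C), which is secreted, had 9.03 in C26 FoxP1-shRNA, 8.24 in C26 scrambled-shRNA and 9.41 in Sham, so that C26 scrambled-shRNA was 2.25-fold below Sham. The stefin Stfa2l1 had 5.02 in C26 FoxP1-shRNA, 4.97 in C26 scrambled-shRNA and 1.81 in Sham, but stefin genes have near-identical copies whose probes may be shared, and its value is uncertain. Cathepsins outside the chosen set (11 genes, several of them placental) were mostly dim, and Ctsw, known from cytotoxic lymphocytes, was the 1 of them lower by 2-fold, with 2.97, 3.46 and 4.50.

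**Figure D4:**
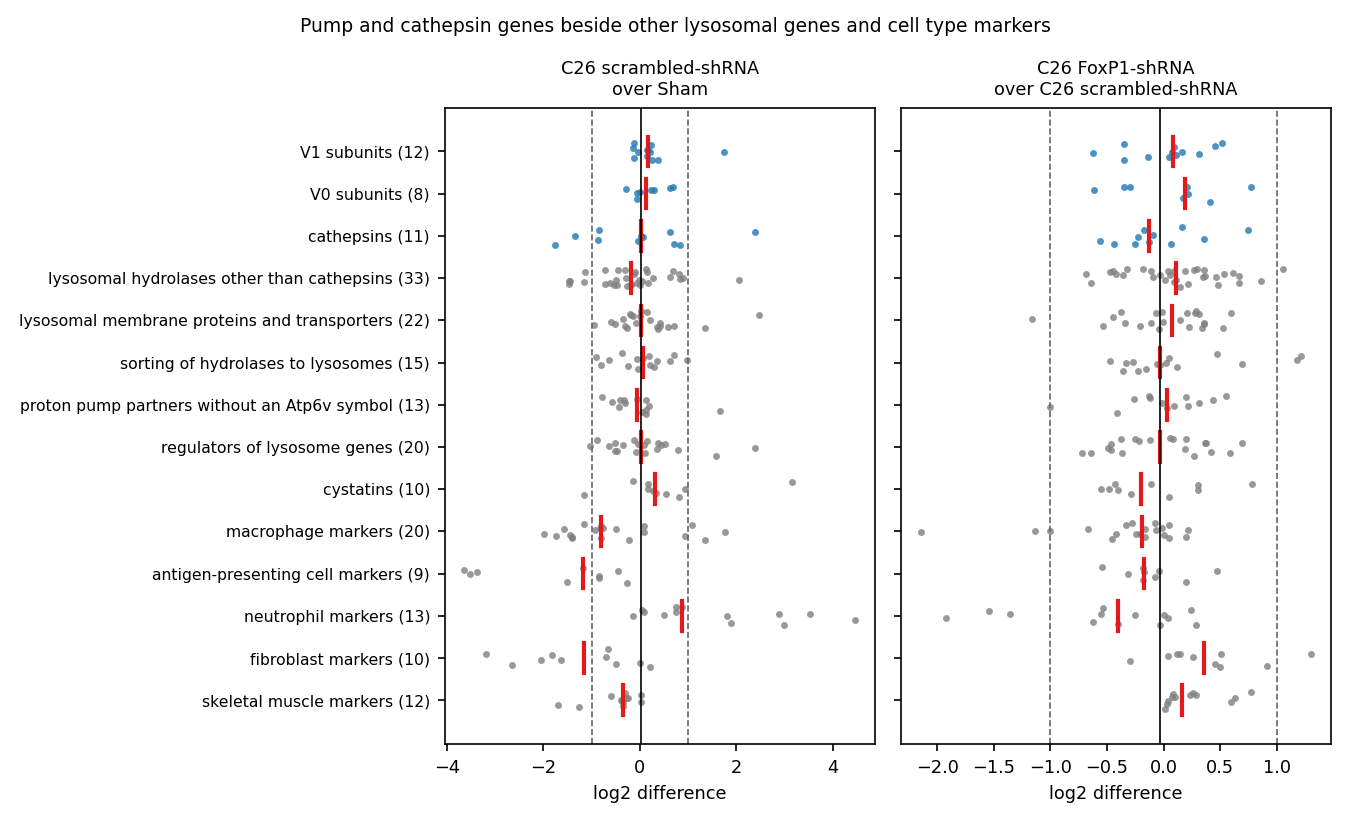
Log2 differences of single genes (points, blue for pump subunits and cathepsins, grey for other lists; number of genes in brackets) in C26 scrambled-shRNA over Sham and in C26 FoxP1-shRNA over C26 scrambled-shRNA, on separate x axes, with red bars for list medians, a black line for the median of all genes and dashed lines at 2-fold. Medians of antigen-presenting cell (-1.18), macrophage (-0.81) and fibroblast (-1.16) markers lie left of the lysosomal lists in the tumour comparison, and that of neutrophil markers (0.87) lies right.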

How the data were processed

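Per the labels and the study's methods, the deposited log2 values had been computed from the scans by RMA, which corrects background, normalizes by quantiles and gives 1 value per gene (affy 1.36.1 and R 2.15.1 in the submitters' processing notes, with a Brainarray Entrez mapping). The set of arrays normalized together was not given in the sources used here, nor was a genome build. Of 25206 genes, 23185 had a symbol in the platform annotation and 2021 are unnamed here.

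From these values, differences between arrays and fold sizes were taken in Python 3.11.15 (numpy 2.4.6, pandas 2.3.3), dim genes included, and counts used sizes of 2-fold and 1.5-fold beside the same count over all genes. The number of arrays (3, 1 per group) limits the precision. The counting was checked on simulated data. The members and the gene lists were chosen with earlier results of these data known. Members past 1.5-fold in any comparison are given on each array, and of each other list up to 4 genes per comparison by size of difference among genes at or above the array median. Alternatives were array centring on medians or on 9 reference genes, quantile and cyclic loess normalization (limma 3.58.1, R 4.3.3), a filter on dim genes, and means for medians. Promoter windows came from RefSeq for GRCm38.p6.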

Additional observations from a re-analysis of the deposited data

How the results depend on the processing

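With arrays centred on 9 reference genes, the median of all genes shifted by 0.12 in the tumour comparison (C26 scrambled-shRNA over Sham), by 0.12 in the knockdown comparison (C26 FoxP1-shRNA over C26 scrambled-shRNA) and by 0.24 in the third (C26 FoxP1-shRNA over Sham). In that order, medians then became 0.22, 0.18 and 0.40 for all members, 0.28, 0.21 and 0.47 for V1 subunits, 0.24, 0.31 and 0.50 for V0 subunits, and 0.14, -0.0043 and 0.0087 for cathepsins. In C26 FoxP1-shRNA over Sham this centring gave 13 members higher and 1 lower by 1.5-fold, and cyclic loess gave 3 higher. In the knockdown comparison, 0 members were lower by 1.5-fold under median or reference-gene centring. The V0 mean was 0.062 in that comparison. In C26 FoxP1-shRNA over Sham, V0 without dim members had a median of 0.37 and the cathepsin mean was -0.069. The cause was not tested. Of 60 alternative counts, 55 stayed within 1.5 times the main count, and of 72 alternative medians, 57 moved by under 0.1. Of 96 alternative differences of named members, 87 stayed past their fold size and 9 fell below it, with 0 reversed. Of the 108 differences of the 36 members, 16 changed sign under at least 1 other scaling, the largest of them 0.23 in size on the deposited scale. No paired analysis was possible because each group is 1 array.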
